A study of Mus musculus with 4 samples.

Results

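The 41 genes described here encode nuclear receptors, and were chosen by name, by a rule that uses no measured value. Earlier results of these data were known when the list was chosen. Peaks were taken as belonging to a receptor when the deposited annotation of the NFIC ChIP-Seq list gave its symbol as the nearest gene. By this rule 83 of the 15824 peaks lay nearest to 28 of the 41 receptor genes, and 13 receptor genes had no assigned peak. The pancreas of mice aged 8 to 12 weeks, of a strain labelled Mixed and described as wild type by the study, was analysed by chromatin immunoprecipitation with an anti-NFIC antibody from Bethyl, in 3 NFIC ChIP libraries beside 1 library of input DNA without antibody. Elsewhere the upper age is stated as 10 weeks in place of 12. The whole pancreas was used, so the signal of acinar, ductal, endocrine and other cells is mixed. The authors deposited 1 merged list on the mouse build mm10 that holds no value for a single library. No spread between replicates can therefore be given, the depth per library is unknown, and all comparisons below are descriptions without a test.

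Nuclear receptors are transcription factors, many of which are switched by small lipophilic ligands such as steroids, thyroid hormone, retinoic acid, fatty acids, oxysterols and bile acids. They bind DNA as monomers, homodimers or heterodimers with a retinoid X receptor, mostly through copies of the half-site AGGTCA, while the glucocorticoid, mineralocorticoid and progesterone receptors bind a different, spaced palindrome. They recruit coactivators or corepressors depending on the ligand. NFIC belongs to the nuclear factor I (NFI) proteins, which bind as dimers to a palindrome of TGGC and GCCA separated by 5 bases. In the exocrine pancreas a nuclear receptor outside the 41 genes, NR5A2, is a known regulator of acinar differentiation.

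Sequences of high peaks are shown first, chosen as the highest peak of 5 genes or as the promoter peaks of 5 genes by score. *Thra* and *Nr3c1*, with highest peaks of 18.3 and 17.9, were passed over. The printed peaks of *Nr2c2*, *Nr4a2*, *Pparg*, *Nr4a3* and *Nr1h3* lie within the promoter window of 1000 bp upstream of a TSS. Each peak spans 173 bp and is printed on the plus strand of GRCm38, the assembly that mm10 represents. Capitals mark the arms TGGC and GCCA of a full NFI site, found with at most 1 mismatch over the 8 fixed bases, or a single arm TTGGCA on either strand. The number after each position is the peak score, the authors' own measure of a peak, which has a median of 6.57 over the whole list.
Rara intron 2 of 8, chr11:98951430-98951602, 23.7: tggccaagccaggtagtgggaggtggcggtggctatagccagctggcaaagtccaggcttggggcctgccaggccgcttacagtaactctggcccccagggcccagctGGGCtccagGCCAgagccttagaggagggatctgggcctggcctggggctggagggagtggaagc
Rxra intron 1 of 9, chr2:27718306-27718478, 23.3: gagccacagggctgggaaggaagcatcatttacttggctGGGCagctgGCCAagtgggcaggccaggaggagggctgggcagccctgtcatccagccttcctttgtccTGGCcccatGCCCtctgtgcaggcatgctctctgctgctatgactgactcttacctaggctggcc
Nr2c2 promoter, chr6:92091988-92092160, 18.9: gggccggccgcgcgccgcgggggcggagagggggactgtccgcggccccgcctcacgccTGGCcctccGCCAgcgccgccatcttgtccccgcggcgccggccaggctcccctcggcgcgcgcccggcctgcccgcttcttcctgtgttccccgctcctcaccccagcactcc
Nr4a2 promoter, chr2:57124100-57124272, 18.7: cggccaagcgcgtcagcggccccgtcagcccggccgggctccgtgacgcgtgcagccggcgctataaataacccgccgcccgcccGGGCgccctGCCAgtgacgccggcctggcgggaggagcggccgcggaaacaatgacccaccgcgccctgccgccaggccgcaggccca
Pparg promoter, chr6:115421051-115421223, 15.3: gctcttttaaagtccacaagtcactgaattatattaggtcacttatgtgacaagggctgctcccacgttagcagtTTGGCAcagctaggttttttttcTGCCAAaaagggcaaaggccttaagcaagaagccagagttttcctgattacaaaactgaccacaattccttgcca
Nr4a3 promoter, chr4:48044597-48044769, 14.1: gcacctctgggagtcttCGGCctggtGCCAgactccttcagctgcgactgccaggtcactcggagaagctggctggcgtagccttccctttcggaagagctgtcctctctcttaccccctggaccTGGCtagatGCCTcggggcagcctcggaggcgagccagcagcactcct
Nr1h3 promoter, chr2:91195141-91195313, 12.1: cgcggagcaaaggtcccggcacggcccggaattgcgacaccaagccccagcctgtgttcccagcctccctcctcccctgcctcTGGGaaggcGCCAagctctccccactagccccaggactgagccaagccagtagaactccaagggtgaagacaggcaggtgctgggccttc

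The *Nr2c2* promoter peak held a full NFI site without a mismatch, 1 of 5 such peaks among the 83. The *Rxra* and *Nr4a3* peaks each held 2 full sites with 1 mismatch, and those of *Rara*, *Nr4a2* and *Nr1h3* held 1. The *Pparg* peak held no full site and 2 single arms in opposite orientation. Exact sites in the other 4 peaks are shown with 9 bases on each side, since they lie at peaks of very different score, from 3.78 in *Nr3c2* intron 2 of 8 to 10.6 in *Rxra* intron 1 of 9.
Nr1h4 intron 1 of 9, site chr10:89533055-89533067, 5.58: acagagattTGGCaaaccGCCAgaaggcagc
Nr3c2 intron 2 of 8, site chr8:76973176-76973188, 3.78: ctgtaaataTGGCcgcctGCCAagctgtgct
Nr4a3 intron 7 of 7, site chr4:48077491-48077503, 4.98: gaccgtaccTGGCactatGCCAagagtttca
Rxra intron 1 of 9, site chr2:27699693-27699705, 10.6: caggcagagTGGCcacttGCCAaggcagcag

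A larger share of the receptor genes than of all protein-coding genes had a peak, and more of them had one in the promoter or of high score. A peak was assigned to 28 of 41 receptor genes, or 68.3% (95% Wilson interval 53.0 to 80.4), beside 37.2% of the 21000 RefSeq protein-coding genes with a curated mRNA. In the promoter window, 11 of 41 had a peak, or 26.8% (15.7 to 41.9), beside 10.7%. A peak in the highest score quartile, at 9.16 or above, was nearest to 16 of 41, or 39.0% (25.7 to 54.3), beside 12.5%. These intervals cover counting error only, and all protein-coding genes include genes silent in the pancreas.

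Receptor genes are long, and long genes had peaks more often. The median length was 47.1 kb for the 41 receptor genes and 17.7 kb for all protein-coding genes. Split by the quartiles of length of all protein-coding genes, 5 of 7 receptor genes of the second quartile (71.4%), 7 of 10 of the third (70.0%) and 16 of 22 of the longest (72.7%) had a peak. The shares of all genes in these quartiles were 34.5%, 41.9% and 52.2%, so the receptor genes stood higher in each. Their interval lay above the share of all genes in the second quartile (35.9 to 91.8) and held it in the third (39.7 to 89.2) and the longest (51.8 to 86.8). Both receptor genes of the shortest quartile, *Nr1h2* and *Nr1i3*, had no peak, where 20.1% of all genes had one. Promoter peaks were nearest to 2 of 7, 3 of 10 and 6 of 22 receptor genes in the upper 3 quartiles. The shares of all genes were 9.93%, 12.8% and 14.8%. The intervals for the receptor genes (8.22 to 64.1, 10.8 to 60.3 and 13.2 to 48.2) each held the share of all genes. Per Mb of the genome that lies nearer to their TSSs than to any other, there were 9.13 peaks at the receptor genes and 6.82 at all protein-coding genes.

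**Figure D1:**
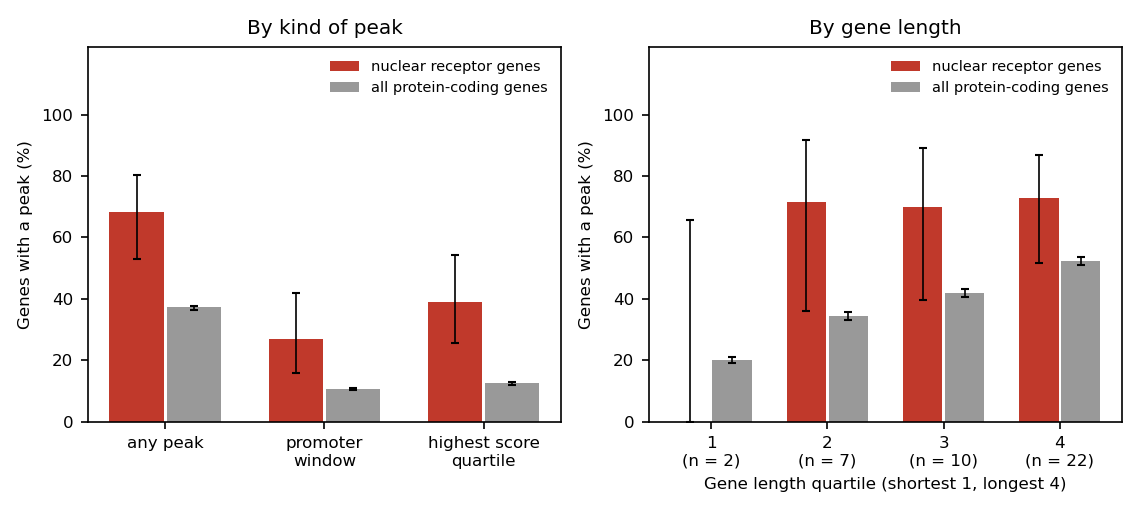
Share of genes (%) with a peak among the 41 nuclear receptor genes (red) and the 21000 protein-coding genes (grey), by kind of peak (left) and by quartile of gene length (right, n is the number of receptor genes). Bars start at 0 and error bars are 95% Wilson intervals for counting error; the receptor genes stand above all genes in each kind of peak and in the upper 3 length quartiles.

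The score of the 83 peaks ranged from 3.78 to 23.7 with a median of 6.97, beside 6.57 for all peaks. In the highest quartile were 25 of 83, or 30.1% (21.3 to 40.7), beside 25.5% of all peaks, so the distribution of scores was close to that of the list. The 12 promoter peaks had a median of 8.98, beside 6.57 for all promoter peaks, and the 71 other peaks 6.77, beside 6.57. The focus ratio, the fraction of the tags of a peak that lie where a sharp binding event would put them, had a median of 0.679, beside 0.684. Peaks per receptor gene with a peak varied from 1, in 10 genes, to 10 in *Thrb*. Of the 28 genes, 4 had 5 or more peaks (14.3%), beside 4.62% of all protein-coding genes with a peak.

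**Figure D2:**
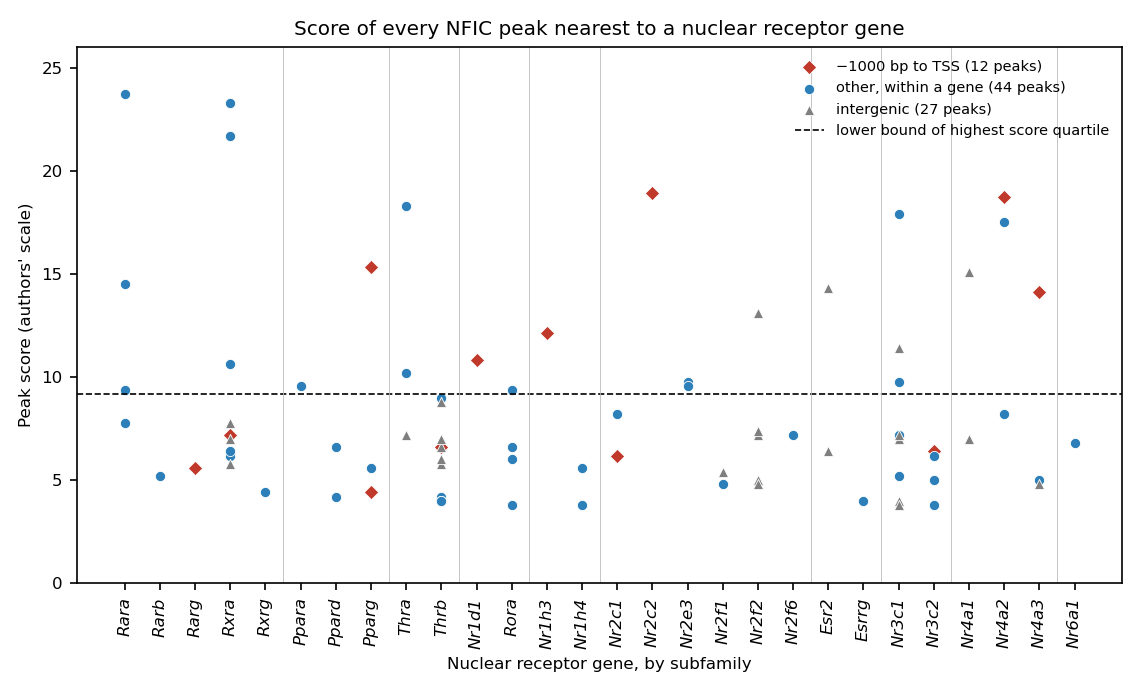
Score of each of the 83 peaks (y axis, authors' scale) at the 28 receptor genes with a peak (x axis, ordered by subfamily, thin lines between subfamilies). Red diamonds are the 12 peaks in the promoter window, blue circles other peaks within a gene, grey triangles intergenic peaks, and the dashed line is the lower bound of the highest score quartile (9.16).

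Retinoid receptors held the highest scores of the family. They bind vitamin A derivatives, RARs all-trans retinoic acid and RXRs as the shared partners of many other receptors. Of the 6 genes, 5 had a peak, 2 had one in the promoter, and the 16 peaks had a median score of 7.47 with 6 in the highest quartile. *Rara* had 4 peaks with scores of 23.7, 14.5, 9.36 and 7.77. The 2 highest lay 1411 bp apart in an intron, 13.8 and 12.4 kb past the first RefSeq TSS of the gene, and the one of 23.7 exceeded 99.2% of all peaks. The 7.77 peak lay in the 5′ UTR, 170 bp past the nearest TSS. *Rxra* had 9 peaks, of which 23.3, 21.7, 10.6, 6.37 and 6.17 lay in introns, 7.17 at 85 bp upstream of a TSS, and 7.77, 6.97 and 5.78 intergenic at 50.3, 77.9 and 58.8 kb upstream. The peak of 21.7, in intron 9 of 9 (chr2:27758490-27758662), held 3 full NFI sites, more than any other of the 83. *Rarg* had 1 peak of 5.58 at 635 bp upstream of a TSS. *Rarb* had 1 of 5.18 in intron 1 of 9, 133 kb past the TSS, and *Rxrg* 1 of 4.38 in intron 9 of 9. *Rxrb* had none.

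All 3 PPAR genes, whose products sense fatty acids, had a peak at or near a TSS. *Pparg*, the adipogenic member, had 2 promoter peaks at different TSSs, of 4.38 at 24 bp and of 15.3 at 929 bp upstream, and 1 of 5.58 in intron 7 of 7. Those promoter peaks differed in base composition as well, with a GC content of 82.5% for the lower and 44.5% for the higher, measured over 200 bp. *Ppara*, a regulator of fatty acid oxidation, had 1 peak of 9.56 at 12 bp past a TSS. *Ppard* had 2, of 6.57 at 70 bp past a TSS and of 4.18 in an intron of the neighbouring gene *Def6*. By these distances *Ppara* and *Ppard* fall just outside the promoter window.

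Both thyroid hormone receptor genes had peaks, in different arrangements. *Thra* had 3, of 18.3 and 10.2 in intron 1 of 8, 8.86 and 2.12 kb past the TSS, and of 7.17 at 1182 bp upstream, and each of the 3 held a full NFI site. *Thrb* had 10, the most of any receptor gene, and none reached the highest quartile. Its scores ran from 3.98 to 8.96 with a median of 6.28. One of 6.57 lay 76 bp upstream of the TSS, and 4 intergenic peaks of 5.78 to 6.97 were spread from 27.8 to 91.7 kb upstream. Of the 10 peaks, 2 held a full NFI site.

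The clock-linked REV-ERB and ROR genes, repressors and activators that share DNA sites, were divided. *Nr1d1*, which encodes REV-ERB alpha, had 1 peak of 10.8 at 256 bp upstream of the TSS. It held an AGGTCA half-site and no full NFI site. *Rora* had 4 peaks of 3.78 to 9.36, all in introns of this gene of 734.8 kb. *Nr1d2* and *Rorb* had none. The nearest peak of the list to a TSS of *Rorb* was 1770 kb away, the longest such distance among the 41 genes.

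Of the 6 genes for receptors of oxysterols, bile acids, xenobiotics and vitamin D, 2 had a peak, with 3 peaks in all. This count is near the 37.2% of all protein-coding genes with a peak. *Nr1h3*, or LXR alpha, a regulator of cholesterol and fatty acid synthesis, had 1 of 12.1 at 111 bp upstream of the TSS. *Nr1h4*, the bile acid receptor FXR, had 2, of 3.78 at 9 bp and of 5.58 at 538 bp past the TSS, and both held a full NFI site. *Nr1h2*, *Nr1i2*, *Nr1i3* and *Vdr* had none. The nearest peaks of the list to the TSSs of these 4 genes were 17.2, 50.3, 9.44 and 55.9 kb away.

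Of the 7 orphan receptors of the NR2 group, 6 had a peak, with 15 peaks and a median score of 7.17. *Nr2c2*, or TR4, had 1 peak of 18.9 at 359 bp upstream of the TSS, the highest of the 12 promoter peaks. Its relative *Nr2c1*, or TR2, had a promoter peak of 6.17 at 371 bp upstream and one of 8.17 in intron 14 of 20 of *Fgd6*. *Nr2f2*, or COUP-TFII, had 7 peaks and all were intergenic, at 46.3, 115, 149, 258, 259, 414 and 743 kb upstream of the TSS. Their scores were 4.98, 4.78, 4.98, 7.17, 13.1, 7.37 and 4.78 in this order, so that the one of the highest quartile lay 259 kb away. *Nr2f1*, or COUP-TFI, had 2 low peaks of 4.78 and 5.38, at 2.96 and 285 kb upstream. *Nr2e3*, the photoreceptor-specific receptor, had 2 of 9.76 and 9.56 at the far end of the gene, 7.4 and 6.11 kb past the TSS. *Nr2f6* had 1 of 7.17 in the 5′ UTR, and *Nr2e1* none.

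Among the steroid receptor genes, the glucocorticoid receptor gene *Nr3c1* had the most assigned peaks. It had 9, of 17.9, 11.4, 9.76, 7.17, 7.17, 6.97, 5.18, 3.98 and 3.78. The highest lay in intron 1 of 7, 26.2 kb past the nearest TSS, and was the one of the 9 with a full NFI site. A pair of 6.97 and 7.17 lay in a CpG island, 2743 and 3507 bp upstream of the TSS used by the authors. The latter was 82 bp from another TSS in RefSeq, so that *Nr3c1* counts as a gene with a promoter peak when every RefSeq TSS is used. Of the others, 3 lay in introns of the next gene, *Arhgap26*, 146 to 203 kb past the TSS. The genome nearest to the TSSs of *Nr3c1* spans 405.2 kb, and within the gene or 5 kb upstream lay 3 peaks. *Nr3c2*, the mineralocorticoid receptor gene, had 4 assigned peaks of 3.78 to 6.37, with 6.37 at 211 bp upstream of the TSS. Within *Nr3c2* or 5 kb upstream lay 5 peaks, more than at *Nr3c1*. They included one of 8.17 in an intron that was assigned to *0610038B21Rik*. *Esr2*, or oestrogen receptor beta, had 2 upstream, of 6.37 at 1943 bp and of 14.3 at 18.9 kb, and both held a full NFI site. *Esrrg* had 1 of 3.98, and *Esr1*, *Esrra*, *Esrrb* and *Pgr* had none.

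The NR4A genes, immediate early genes whose products need no ligand, all had a peak in the highest quartile, and their 8 peaks had the highest median score of the 10 subfamilies, 11.1. *Nr4a2* had 3, of 18.7 at 183 bp upstream of the TSS, of 17.5 at 24.4 kb upstream in an intron of the non-coding gene *BB557941*, and of 8.17 at 1066 bp upstream. *Nr4a1* had 2, of 15.1 at 6.32 kb and of 6.97 at 20.6 kb upstream. *Nr4a3* had 3, of 14.1 at 622 bp upstream, of 4.98 in intron 7 of 7 and of 4.78 at 106 kb upstream. Of the remaining pair of genes, *Nr6a1* had 1 peak of 6.77 in intron 1 of 10 and *Nr5a1* none. A median of 8 peaks at 3 genes rests on few values.

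**Figure D3:**
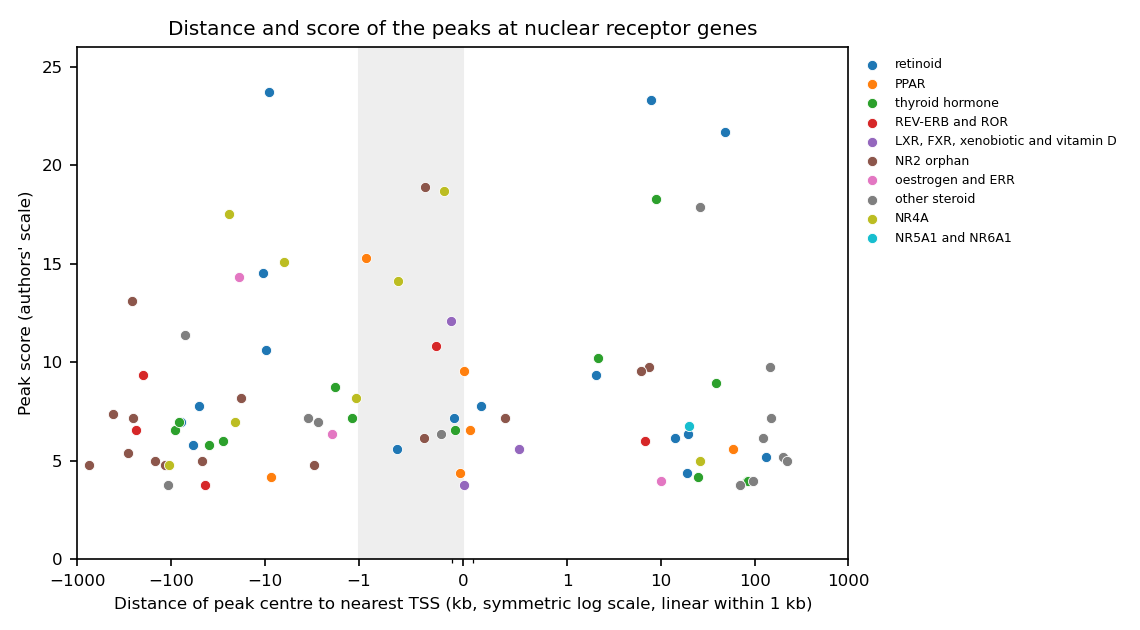
Distance of each of the 83 peaks to the nearest TSS (x axis, kb, negative upstream, symmetric log scale that is linear within 1 kb) and its score (y axis, authors' scale), coloured by subfamily. The grey band is the promoter window, which holds 12 peaks from 4.38 to 18.9; the 3 highest scores, from *Rara* and *Rxra*, lie outside it.

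Peaks of the receptor genes lay farther from a TSS than those of the whole list. The median distance was 18949 bp, beside 10438 bp for all peaks. Beyond 100 kb lay 17 of 83, or 20.5% (13.2 to 30.4), beside 7.6% of all peaks. Of these, 6 were at *Nr2f2* and 4 at *Nr3c1*. Upstream of the nearest TSS lay 49 of 83, or 59.0% (48.3 to 69.0), beside 44.5%. By the deposited class 45.8% were in introns (40.8% of all peaks), 32.5% intergenic (30.6%) and 18.1% at promoters (20.7%). The receptor genes also own more of the genome by nearest TSS, with a median of 108 kb, beside 42.4 kb for all protein-coding genes, and the part of this in the distances was not tested. Of the 18 peaks within 1 kb of a TSS, 0 had a TSS of another gene within 1 kb of their centre, which allows a share of up to 16.7% by a limit of 3 counts and so holds the 15.3% of all such peaks.

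**Figure D4:**
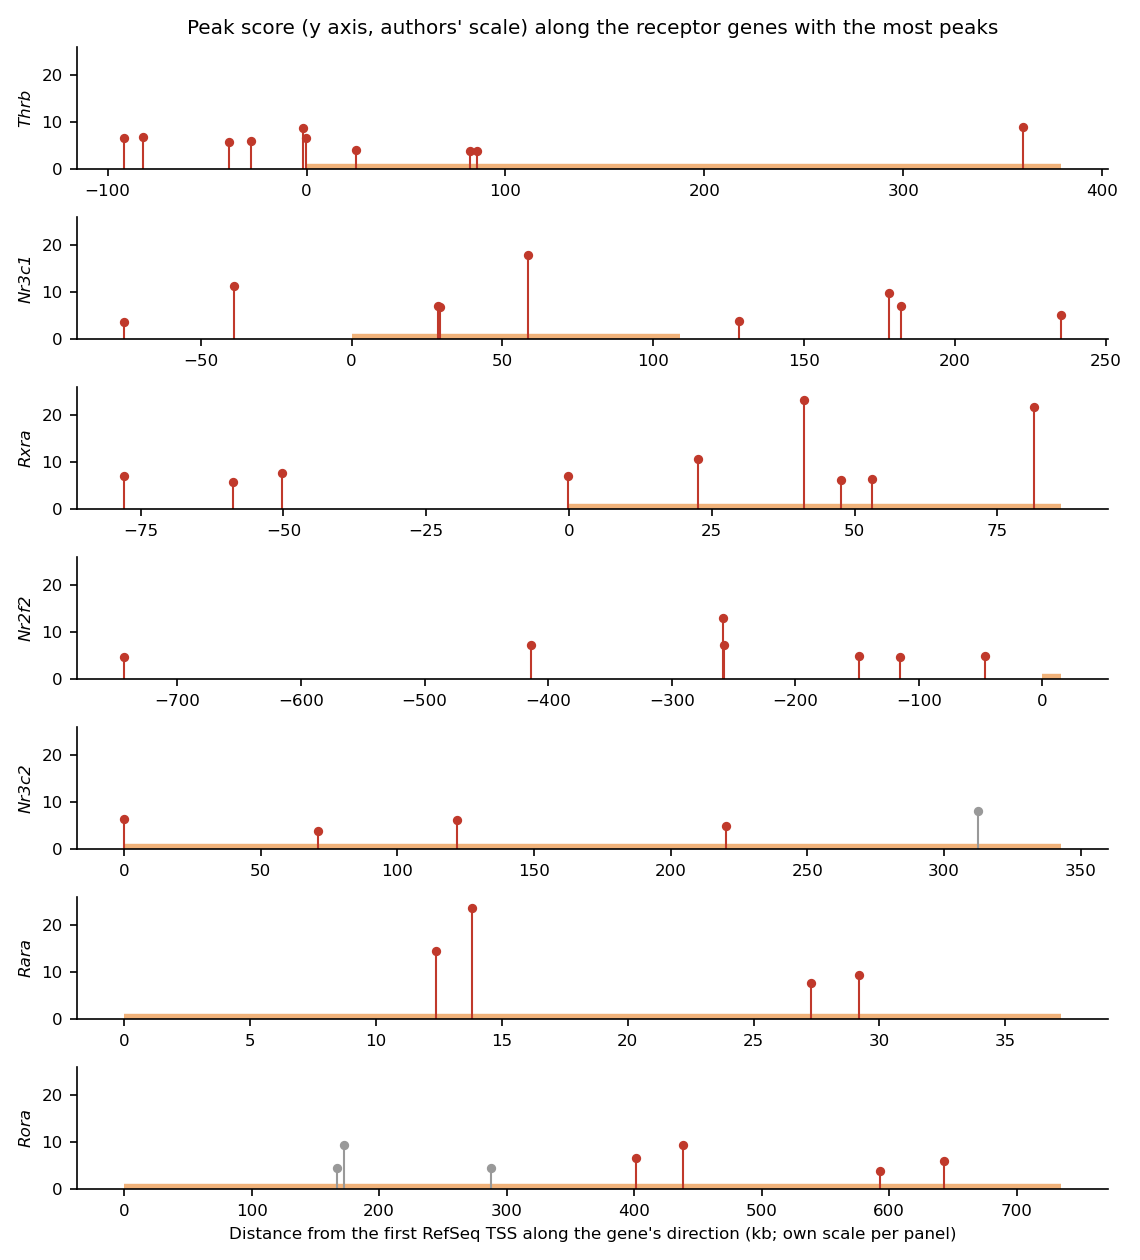
Peaks along the 7 receptor genes with 4 or more peaks, as stems with the peak score as height (authors' scale, 0 to 26) against the distance from the first RefSeq TSS in the direction of transcription (kb, own scale per panel). The orange bar is the gene, red stems are peaks assigned to it and grey stems are peaks inside it assigned to another gene; *Nr2f2* has its 7 peaks upstream of the gene, *Rara* its 4 inside.

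Some receptor genes lie side by side, and the peaks of these neighbourhoods differed. *Thra*, *Nr1d1* and *Rara* lie within 234.2 kb of chromosome 11 (chr11:98740776-98974942), where *Thra* and *Nr1d1* overlap at their ends. This interval held 10 peaks with a median score of 12.4, and 8 of them were in the highest quartile. Of these 10 peaks 7 were assigned to the 3 receptor genes and the others to other genes. The paralogous genes *Rarb*, *Thrb* and *Nr1d2* lie within 1808.3 kb of chromosome 14 (chr14:16430839-18239106). That interval held 11 peaks with a median of 5.98 and a highest score of 8.96, and 0 of them were in the highest quartile, and all 11 were assigned to receptor genes. Peaks were thus found at 42.7 per Mb in the first interval and 6.08 per Mb in the second. All protein-coding genes had 6.82 per Mb of the genome nearest to their TSSs, close to the second interval. Adjacent *Nr5a1* and *Nr6a1* on chromosome 2 had 2 peaks between them in 233.8 kb, 1 of which was assigned to *Nr6a1*.

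Other peaks near receptor genes were assigned to non-coding genes. When each peak was given to the nearest TSS of a protein-coding gene, 102 peaks in place of 83 fell to the same 28 receptor genes. The largest gain was at *Ppara*, from 1 to 8. Upstream of it lay 6 peaks assigned to *Lncppara*, with scores from 5.18 to 18.7 and 5 of them in the highest quartile. The highest lay 407 bp upstream of the TSS of this non-coding RNA gene. The other peak gained, of 7.17, was assigned to *Mirlet7b*. At *Rora*, 3 peaks of 9.36, 4.58 and 4.58 inside the gene were assigned to *9530091C08Rik*. At *Ppard*, the 2 peaks gained, of 10.6 and 7.17, were assigned to *1810013A23Rik*. Within *Ppard* or 5 kb upstream lay 6 peaks, 5 of them assigned to *1810013A23Rik* or *Mir5098*. At *Nr2e3* 3 peaks of 4.18 to 7.97 were assigned to *Gm7616*, and at *Esr2* 2 of 10.4 and 7.17 to *Mir5101*. Which gene a peak acts on, if any, is not shown by the list.

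A full NFI site was found in 37 of the 83 peaks, or 44.6% (34.4 to 55.3), within 200 bp around the centre, beside 51.8% of all peaks. Without a mismatch the share was 5 of 83, or 6.02% (2.6 to 13.3), beside 13.4%. The single arm TTGGCA, which can overlap a full site, was found in 34 of 83 (interval 31.0 to 51.7%), beside 33.7%. As in the whole list, the full site was more frequent in higher peaks and less frequent in the promoter window. It was found in 15 of 25 receptor peaks of the highest quartile (60.0%) and 22 of 58 lower peaks (37.9%), beside 68.0% and 46.3% of all peaks in these classes. In the promoter window it was found in 4 of 12 (33.3%), those of *Nr1h3*, *Nr2c2*, *Nr4a2* and *Nr4a3*, beside 37.7%, and elsewhere in 33 of 71 (46.5%), beside 54.4%. Of the 44 full sites in the receptor peaks, 34 (77.3%) had their centre within 50 bp of the peak centre, beside 76.9% of all full sites.

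By subfamily the full site was found in 11 of 16 peaks at retinoid receptor genes, 4 of 8 at NR4A genes, 6 of 15 at NR2 genes and 5 of 13 at thyroid hormone receptor genes. It was in all 3 peaks of the group of LXR, FXR, xenobiotic and vitamin D receptors, 2 of 3 at oestrogen receptor and ERR genes, 2 of 5 at REV-ERB and ROR genes and 0 of 1 at *Nr6a1*. Fewer peaks had it at the glucocorticoid and mineralocorticoid receptor genes, with 3 of 13, and at the PPAR genes, with 1 of 6. These counts are too small to rank the subfamilies.

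Sites for nuclear receptors themselves were also counted. The half-site AGGTCA, searched on both strands, was found in 11 of 83, or 13.3% (7.56 to 22.2), beside 14.1% of all peaks. Its extended form AAGGTCA, which contains it and is bound by NR5A and ERR receptors, was found in 2.41% (0.663 to 8.37), beside 4.77%. In promoter peaks the half-site was found in 3 of 12, those of *Nr1d1*, *Pparg* and *Nr4a3* (interval 8.89 to 53.2%), above the 8.34% of all promoter peaks, a difference that rests on 3 peaks. A glucocorticoid-type site, GAACA and TGTTC with 3 bases between and at most 1 mismatch, was found in 1 of 83, the *Rxra* peak of 21.7, beside 0.714%. A match is a description of the letters and does not show that a receptor binds there.

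Among motifs of other factors, FOX (TGTTTAC) was found in 7 of 83, or 8.43% (4.15 to 16.4), beside 3.99% of all peaks, the motif GATAAG of GATA factors in 9.64% (4.97 to 17.9), beside 7.74%, and the E-box CAGCTG in 24.1% (16.2 to 34.3), beside 21.4%. The SP motif GGGCGG was found in 7 of the 12 promoter peaks (58.3%), beside 58.4% of all promoter peaks, and in 14.1% of the others, beside 14.3%. The cAMP response element TGACGTCA was found in 0 of 83, which allows a share of up to 3.61% by the limit of 3 counts that a count of 0 leaves (4.42% by the Wilson interval), beside 0.543%. All these motifs were searched on both strands, and apart from FOX each share of all peaks fell within the interval for the receptor peaks. Transposable elements held 7 of the 83 peaks (8.43%), beside 10.5%, among them the 15.1 peak of *Nr4a1* in a SINE.

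**Figure D5:**
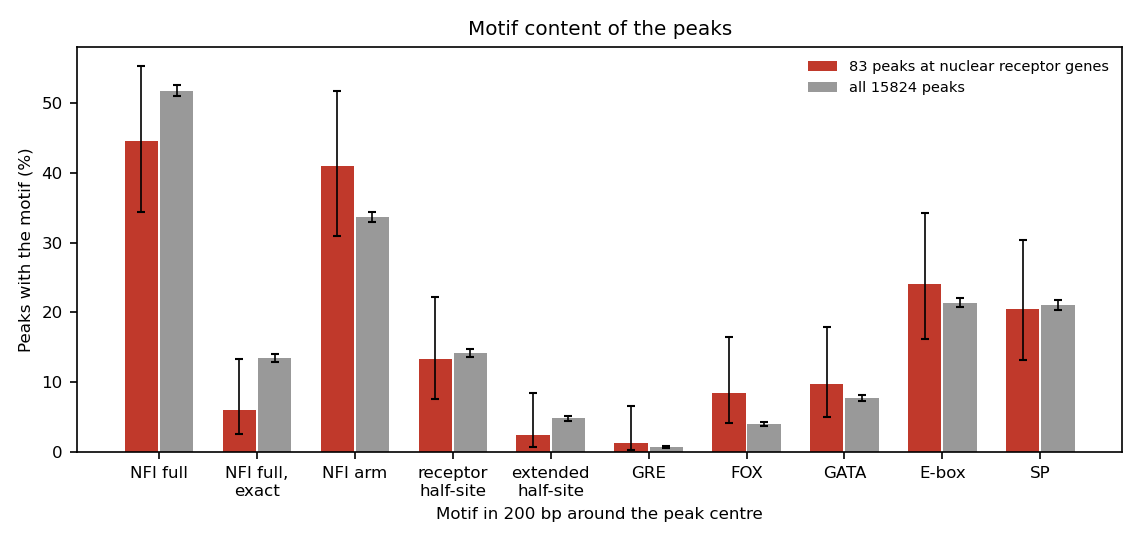
Share of peaks (%) with each motif in 200 bp around the centre for the 83 receptor peaks (red) and all 15824 peaks (grey), with 95% Wilson intervals for counting error. The exact NFI full site reads 6.02% against 13.4%, and the receptor half-site 13.3% against 14.1%.

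The genes that work with the receptors were described from lists fixed by name. Of 8 nuclear receptor genes outside the 41, 4 had a peak and 3 of them one in the promoter, beside 37.2% and 10.7% of all protein-coding genes. Among them *Nr0b2*, or SHP, a corepressing receptor without a DNA-binding domain, had 2 peaks with 18.3 at 492 bp upstream of the TSS, and *Hnf4a* had 1 of 4.58 at 106 bp upstream. *Nr5a2* had 7 peaks with a highest score of 15.1 at 19.4 kb past the TSS, and *Nr0b1*, *Hnf4g* and *Nr1h5* had none.

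Of 14 coregulator genes, 12 had a peak and 4 a promoter peak, beside 37.2% and 10.7% of all protein-coding genes, and their 45 peaks had a median score of 6.17, below the 6.57 of all peaks. *Tbl1xr1*, which encodes a subunit of the NCoR complex, had 8, and *Nrip1*, or RIP140, had 5. Promoter peaks were found at *Nrip1* (8.17), *Ncoa2* (6.37), *Ep300* (6.17) and *Tbl1x* (4.18). *Ncor1* and *Med1* had none.

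Of 23 genes that make, carry or break down ligands, 7 had a peak and 0 had one in the promoter window, beside 37.2% and 10.7% of all protein-coding genes. Of their 16 peaks 10 were at *Dhrs3*, a retinaldehyde reductase gene, with a highest score of 13.7 at 107 kb past the TSS. The other 6 genes had 1 peak each, among them *Rdh10*, a retinol dehydrogenase gene, with 15.1, and the deiodinase gene *Dio1* with 9.16 at 140 bp past the TSS. The share with a peak, 30.4%, was near that background, and 0 of 23 promoter peaks allows up to 3 of 23 by the same limit, which holds the 10.7%.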

How the data were processed

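NFIC ChIP-Seq of mouse pancreas (3 libraries) and input DNA (1 library) was analysed from the merged peak list that the authors deposited. Per the file headers, peaks were annotated with annotatePeaks.pl of HOMER on mm10. The submitters' processing notes name BWA, Picard and MACS2 without roles. Versions and thresholds are not given in the sources used here. The peak score is the authors' own, on a scale that is not named, and the deposited focus ratio gives, per peak, the fraction of tags placed as a sharp binding event would place them. There are 0 columns with values per library, so no replicate error could be had.

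The 41 genes, the other gene lists and the comparisons were chosen with earlier results of these data known, and no pattern is tested. All 41 symbols matched the RefSeq annotation of GRCm38. Background genes were the 21000 protein-coding genes with a curated mRNA, matched to peaks by gene ID. The promoter window was 1000 bp upstream to the TSS by the deposited distance. Quartiles of score followed the whole list (9.16 and above, 6.57 to 8.96, 4.98 to 6.37, 3.39 to 4.78). Motifs were searched as fixed letters on both strands in 200 bp around the peak centre, in the genome sequence of GRCm38. The search was tested on simulated sequences with planted sites.

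Described in full are receptor genes with a promoter peak, a peak in the highest quartile or the 6 highest numbers of peaks, with ties. Sequences printed are the highest peaks of 5 genes, the promoter peaks of 5 genes by score, and the exact NFI sites. *Thra* and *Nr3c1* were passed over for sequences, an exception to this rule. Of the other lists (other nuclear receptors, coregulators, ligand supply, chaperones, target genes), genes with a promoter peak and the 3 with most peaks were named, and others named were chosen after their values were seen. Some genes of these lists are not reported here. Other settings tried were stricter score quartiles, other promoter windows, nearest RefSeq TSSs, merged close peaks, and stricter or narrower motif searches. Python 3.11 with numpy 2.4.6, pandas 2.3.3, scipy 1.17.1 and matplotlib 3.10.9 was used.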

Additional observations from a re-analysis of the deposited data

How the results depend on the processing

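Of 20 alternative settings, 16 left the value within the limits set for it, which were 1.5 times for a count and the 95% interval for a share or median. Keeping the highest score quartile gave 16 receptor genes with a peak in place of 28, and keeping the upper 2 quartiles gave 47 peaks in place of 83; both hold fewer peaks by construction. Allowing no mismatch lowered the share of peaks with a full NFI site from 44.6% to 6.02%, and a window of 100 bp lowered it to 32.5%, also by construction. Receptor genes with a peak in the promoter window numbered 11 as given, 8 in the upper 2 quartiles, and 13 to 16 with wider windows or every RefSeq TSS. A window to 100 bp past the TSS added *Nr1h4*, *Ppara* and *Ppard*, and every RefSeq TSS added *Nr3c1* and *Ppara*. *Nr2f2* had no peak within the gene or 5 kb upstream. Merging peaks under 500 bp apart changed no value by construction, since the closest pair lay 529 bp apart, and makes 2 of the 16. The median score was also 6.97 with the nearest RefSeq coding TSS and without *Thrb*. No paired analysis was possible because the deposited list has no values per library. The scale of the score and the depth are unknown, so a gene without a peak may lie below the authors' threshold, and the merged list does not show which peaks are shared by the 3 libraries.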

Other observations

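Target genes and chaperones of the receptors were also found in the list. Of 28 genes known to respond to receptors of the groups described, 20 had a peak and 7 a promoter peak, beside 37.2% and 10.7% of all protein-coding genes, and their 57 peaks had a median score of 7.77, beside 6.57 for all peaks. The same 37.2% and 10.7% stand beside the counts of each group. Among 6 glucocorticoid-responsive genes, 5 had a peak and 4 a promoter peak. The clock gene *Per1* had 2 peaks, of 34.9 at 1.91 kb and of 16.1 at 44 bp upstream of the TSS. *Dusp1*, a MAP kinase phosphatase gene, had a promoter peak of 17.7 at 210 bp upstream, *Sgk1*, a kinase gene of ion transport, one of 9.56 at 689 bp, and *Zbtb16* one of 6.37 at 12 bp beside a peak of 31.1 at 95.6 kb past the TSS. *Tsc22d3*, which encodes GILZ, had 6 peaks with a highest score of 13.3, and *Fkbp5* had none. Of 6 PPAR-responsive genes 5 had a peak, among them *Pdk4* with a promoter peak of 6.17. Of 4 genes under REV-ERB and ROR all had a peak, with 14.1 at 491 bp upstream of *Clock* and 6 peaks at *Nfil3*. Of the 4 LXR-responsive genes 3 had a peak and of the 2 thyroid hormone-responsive genes 2. *Dhrs3*, which is also in the ligand list, was the one of 3 retinoic acid-responsive genes with a peak. The 2 genes of FXR and the 1 of vitamin D had none.

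Of 7 chaperone genes of steroid receptors, 4 had a peak and 0 a promoter peak, beside 37.2% and 10.7% of all protein-coding genes, so that 0 of 7 is close to that background. This count is of the merged list only, and does not show that NFIC is absent from these promoters. Their 6 peaks had a median score of 9.69, beside 6.57 for all peaks. *Fkbp4*, which encodes FKBP52, had 3 peaks with a highest score of 18.9 at 2.98 kb past the TSS, and *Hsp90ab1* had 1 of 12.0 at 1.25 kb upstream. These lists hold genes that many factors bind, and a peak at such a gene does not show that a receptor takes part.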
